A study of Mus musculus with 2 samples.

Results

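The genes described here encode 10 proteins that build or remodel the cytoskeleton of oligodendrocytes (OLs). They were chosen by name, with earlier results of these data known: *Tppp*, *Tppp3*, *Gsn*, *Tubb4a*, *Stmn1*, *Stmn4*, *Ermn*, *Anln*, *Sirt2* and *Mapt*. All 10 were found among the 23951 gene symbols shared by both libraries, and all 10 passed the filter that left 14199 genes for comparison. RNA-seq was carried out on optic nerves of mice at postnatal day 12, with 1 control library (genotype Tcf7l2 c/+; OLig1-cre) and 1 mutant library (Tcf7l2 c/c; OLig1-cre), to find genes that differ when Tcf7l2 loses its DNA-binding HMG domain in the OL lineage. Both genotypes carried the Cre transgene under the *Olig1* promoter and at least 1 floxed *Tcf7l2* allele, so no library came from mice without Cre. The mutant allele still encodes a Tcf7l2 protein without the HMG box, only cells of the Olig1 lineage and their descendants recombine, and the number of animals per library is not given in the sources used here. As there was 1 library per genotype, no value has a replicate error, no difference could be tested, and every difference below is a difference between these 2 libraries. The optic nerve holds OLs, astrocytes, microglia, vessels, meninges and the axons of retinal neurons, so fewer cells of a type and less RNA per cell cannot be told apart.

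An OL extends many processes, wraps them around axons and compacts the wraps into myelin. Microtubules run along the processes and serve as tracks for the transport of messenger RNA and vesicles into the sheath, and Tppp, tau (*Mapt*), tubulin isotypes and stathmins set how they assemble. Actin drives the leading edge of the growing process and is taken apart as the sheath wraps, a step in which severing proteins such as gelsolin (*Gsn*) take part. Mature myelin then keeps a scaffold of septins and anillin (*Anln*). Several of these genes are also used by other cells, since tau and stathmins are abundant in neurons, anillin acts in dividing cells, and gelsolin is made by fibroblasts.

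The values are FPKM (fragment counts scaled to transcript length and to library depth), which can therefore be compared between genes. The depth read from the files, in mapped fragments, was 27624000 for the control and 39938000 for the mutant, at which 3 fragments on 1 kb of transcript equal 0.109 and 0.0751 FPKM. Each member lay far above these levels. Differences are given as the log2 ratio of mutant over control after 0.1 FPKM was added to each value, and a gene was called lower or higher past a fold change of 1.5 (0.58 on the log2 scale). Cufflinks, the program that computed FPKM, also gave a lower and an upper bound for each value, and these bounds speak of counting in that library alone, with nothing on how animals vary. The targeted gene, *Tcf7l2*, was at 17.8 FPKM in control nerves (bounds 16.7 to 18.9) and 14.6 FPKM in mutant nerves (13.9 to 15.4). This value covers the whole gene and does not show whether the exon encoding the HMG box is present.

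Of the 10 members, 4 were lower in the mutant library by more than 1.5-fold (*Ermn*, *Tubb4a*, *Tppp* and *Anln*) and 0 were higher by that much. Over all genes tested, 8.52% were lower and 15.4% higher past the same cutoff. A further 4 members (*Sirt2*, *Gsn*, *Mapt* and *Stmn1*) had a lower FPKM in the mutant that stayed within 1.5-fold, and 2 (*Stmn4* and *Tppp3*) had a higher one. Of all genes tested, 45.4% had a lower FPKM in the mutant. The median log2 ratio over the members was −0.40, beside 0.047 over all genes tested. As earlier results of these data were known when the members were chosen, they are not a blind draw from all genes. Most members are highly expressed, and 9 of them had a mean FPKM of at least 30. Among the 2857 tested genes at that level, 8.65% were lower by more than 1.5-fold and the median log2 ratio was 0.023, while 3 of the 9 members were called lower. For all 10 members the Cufflinks bounds of control and mutant lay apart, but so they did for 52.4% of all genes tested, so this says little of the members. For 4 members (*Tubb4a*, *Ermn*, *Sirt2* and *Gsn*) the FPKM itself lay outside its bounds in at least 1 library. Lower past 1.5-fold with bounds apart were 4 members and 7.42% of all genes.

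**Figure D1:**
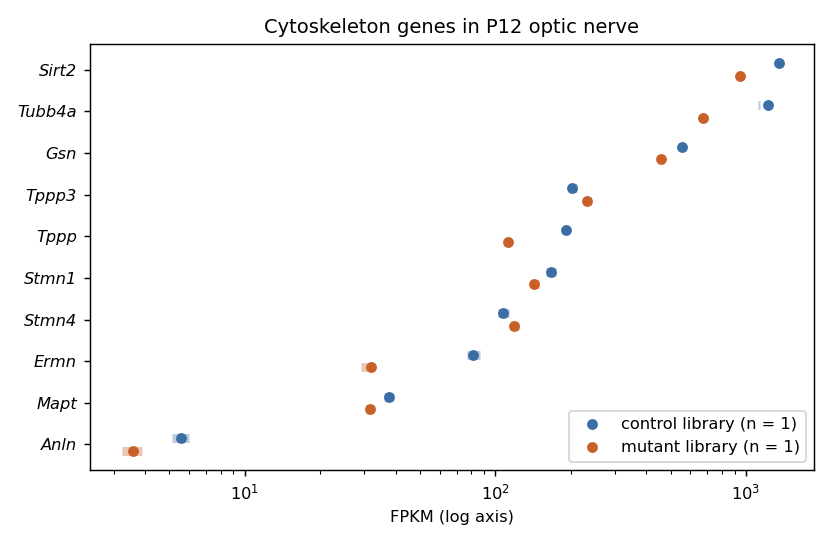
FPKM of each member (log axis) in the control library (blue) and the mutant library (orange), 1 library each, with bars for the Cufflinks bounds, ordered by control FPKM. The points run from 5.54 FPKM for *Anln* to 1348 FPKM for *Sirt2* in the control, and the mutant point lies to the right of the control point for *Tppp3* and *Stmn4* and to the left for the other 8.

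**Figure D2:**
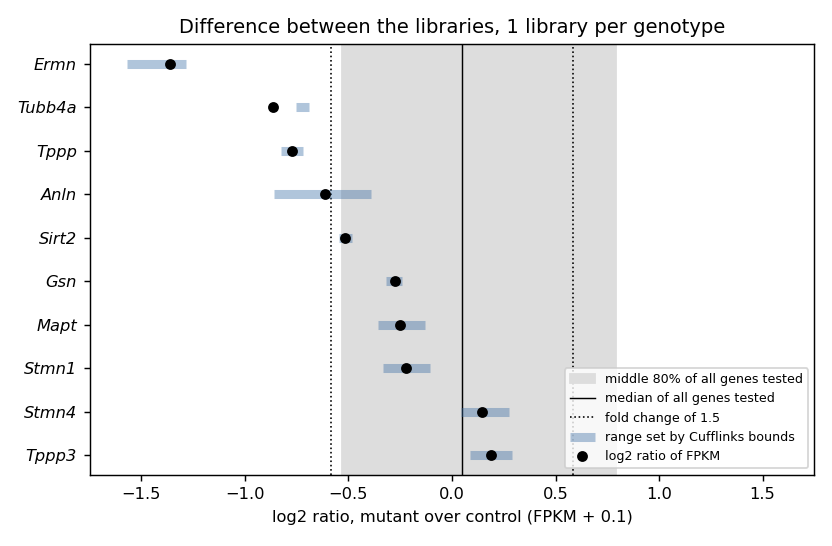
Log2 ratio of mutant over control FPKM for each member (points), with the range that the Cufflinks bounds of both libraries allow (bars), the median of all genes tested (line), their middle 80% (grey) and the 1.5-fold cutoff (dotted). *Ermn*, *Tubb4a*, *Tppp* and *Anln* lie left of the cutoff, the bar of *Anln* crosses it, and the point of *Tubb4a* lies outside its own bar.

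The upstream 250 bases of the genes that differ most are shown here, because Tcf7l2 and its partner Sox10 bind DNA. They come from the RefSeq promoter table of build GRCm38.p6, in which 6 of the 10 members had an entry (8 windows, 3 of them for *Gsn*). *Tppp3*, *Stmn1*, *Stmn4* and *Mapt* were not matched. Each is written 5′ to 3′ on the strand of the gene and ends at the base before the annotated start. Capitals mark matches to a searched motif. The motif searched for Tcf/Lef factors was CTTTGA, which reads TCAAAG on the other strand. For Sox factors, the first motif was ACAAAG, which reads CTTTGT on the other strand, and the second was ACAATG, which reads CATTGT on the other strand. The Tcf/Lef motif and the first Sox motif overlap in 5 of their 6 letters, but no 6 bases match both. *Ermn*, *Tubb4a*, *Tppp* and *Anln* are the 4 members called lower, and *Sirt2* is the next in order of log2 ratio.
Ermn, chr2:58052865-58053114, minus strand: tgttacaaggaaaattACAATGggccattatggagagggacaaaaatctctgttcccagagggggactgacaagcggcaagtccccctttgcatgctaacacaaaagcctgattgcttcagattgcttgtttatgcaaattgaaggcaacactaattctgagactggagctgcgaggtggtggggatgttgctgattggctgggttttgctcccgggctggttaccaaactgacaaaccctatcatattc
Tubb4a, chr17:57087601-57087850, minus strand: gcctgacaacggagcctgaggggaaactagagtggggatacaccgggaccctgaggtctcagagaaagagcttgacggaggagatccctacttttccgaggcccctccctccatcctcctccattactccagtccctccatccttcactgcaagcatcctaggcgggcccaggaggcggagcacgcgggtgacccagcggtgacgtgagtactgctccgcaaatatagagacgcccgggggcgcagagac
Tppp, chr13:74009169-74009418, plus strand: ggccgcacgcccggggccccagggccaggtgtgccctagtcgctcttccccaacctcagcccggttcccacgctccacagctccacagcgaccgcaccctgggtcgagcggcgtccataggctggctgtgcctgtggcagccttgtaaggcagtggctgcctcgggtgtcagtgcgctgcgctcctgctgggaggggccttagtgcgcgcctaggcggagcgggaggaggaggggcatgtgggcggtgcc
Anln, chr9:22389207-22389456, minus strand: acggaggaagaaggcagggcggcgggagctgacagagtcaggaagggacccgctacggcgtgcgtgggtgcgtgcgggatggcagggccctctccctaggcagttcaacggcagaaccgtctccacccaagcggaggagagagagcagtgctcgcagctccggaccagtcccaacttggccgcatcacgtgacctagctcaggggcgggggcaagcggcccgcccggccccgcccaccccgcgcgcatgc
Sirt2, chr7:28766502-28766751, plus strand: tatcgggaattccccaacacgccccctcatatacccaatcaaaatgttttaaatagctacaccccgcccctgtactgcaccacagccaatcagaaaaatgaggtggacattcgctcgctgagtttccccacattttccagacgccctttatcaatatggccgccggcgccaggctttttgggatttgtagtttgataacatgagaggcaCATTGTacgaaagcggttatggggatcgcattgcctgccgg

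Neither CTTTGA nor ACAAAG, on either strand, was in any of the 8 windows, beside 13.8% and 16.5% of all 32851 windows in the table. ACAATG or its reverse complement was in 2 of the 8 windows and in 10.7% of all windows. In *Ermn* its first base lies 234 bases before the start, and in *Sirt2* the reverse complement begins 41 bases before the start. The windows also differ in composition. The *Anln* window holds 24 CG dinucleotides and that of *Tppp* 19, more than 88.0% and 80.3% of all windows, whereas the *Ermn* window holds 3, against a median of 6 over all windows. *Tubb4a* and *Sirt2*, with 14 and 13, lie between. A match shows only that these letters occur, and no binding was measured in these files. Bases outside the windows were not searched, so the lack of a match says little about a gene. The study mapped Tcf7l2 and Sox10 binding in cultured rat cells, and those data were not used here.

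Among the 7 members that act on microtubules, *Tubb4a* had the largest difference. It encodes a beta tubulin isotype that is abundant in OLs and whose mutation causes a hypomyelinating leukodystrophy in people. Its row, at chromosome 17 from 57219482 to 57227205 in the control file (build mm9 per the labels, as for all members below), had 1224 FPKM (control) and 673 FPKM (mutant), a log2 ratio of −0.86. It ranked second of the members in both libraries. The FPKM lay above its bounds in the control (1115 to 1139) and below them in the mutant (676 to 692), so the bounds themselves give a smaller difference. With the midpoint of the bounds in place of FPKM, a reading added after seeing the data, the log2 ratio was −0.72, still past the cutoff. Only 4.73% of all genes tested had a lower log2 ratio than *Tubb4a*.

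The other beta tubulins did not share this difference. *Tubb2a* and *Tubb2b* form 1 merged row, so the files do not tell them apart, and it had 476 FPKM (control) and 593 FPKM (mutant) (log2 ratio 0.32). *Tubb5* was at 197 and 186 FPKM, and *Tubb4b* at 125 and 132 FPKM with bounds that overlapped. *Tubb6* was at 35.5 FPKM (control) and 51.3 FPKM (mutant). *Tubb3*, an isotype typical of neurons, was called higher, from 12.7 to 22.0 FPKM (log2 ratio 0.79). As a share of the summed FPKM of the beta tubulins, *Tubb4a* made up 59.1% in the control library and 40.6% in the mutant library, while the *Tubb2a* and *Tubb2b* row made up 23.0% and 35.8%. These shares do not depend on how the libraries are scaled, and they show unequal change, not which isotype stayed level. Beta tubulins are alike in sequence, and reads that fit several of them may have been split between their rows.

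*Tppp*, which encodes the tubulin polymerization promoting protein that nucleates and bundles microtubules in OL processes, had 191 FPKM in control nerves (bounds 190 to 197) and 112 FPKM in mutant nerves (111 to 115). Its log2 ratio was −0.77, lower than all but 5.59% of the genes tested. The row spans chromosome 13 from 74146867 to 74173201 in both files. Its paralogue *Tppp3*, on chromosome 8 from 107991391 to 107995322, had 203 FPKM in control nerves (196 to 212) and 231 FPKM in mutant nerves (225 to 240), a log2 ratio of 0.19. The paralogues were thus close to each other in the control, with a *Tppp* to *Tppp3* ratio of 0.943, and apart in the mutant, with a ratio of 0.484. *Tppp* ranked above *Stmn1* and *Stmn4* in the control and below both in the mutant, from rank 5 in the control to rank 7 in the mutant. *Tppp2*, the remaining paralogue, was listed at 0 in the control and at 0.059 FPKM in the mutant, under the level of 3 fragments on 1 kb.

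The stathmins bind tubulin dimers and favour microtubule disassembly. *Stmn1*, on chromosome 4 from 134024235 to 134029758, had 166 FPKM in control nerves (160 to 174) and 142 FPKM in mutant nerves (138 to 149), a log2 ratio of −0.22. *Stmn4*, whose product carries a membrane anchor, lies on chromosome 14 from 66963072 to 66980517 and had 107 FPKM in control nerves (103 to 113) and 119 FPKM in mutant nerves (116 to 124), a log2 ratio of 0.15. Neither passed the cutoff, and the ratio of *Stmn1* to *Stmn4* was 1.55 in the control and 1.20 in the mutant. Summed over *Stmn1* to *Stmn4*, the stathmins had 313.5 FPKM (control) and 313.8 FPKM (mutant), with the share of *Stmn1* at 53.0% and 45.3%. *Stmn2*, a stathmin of neurons, was called higher, from 5.41 to 14.1 FPKM (log2 ratio 1.36). *Stmn3* was at 34.4 and 38.6 FPKM with overlapping bounds.

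**Figure D3:**
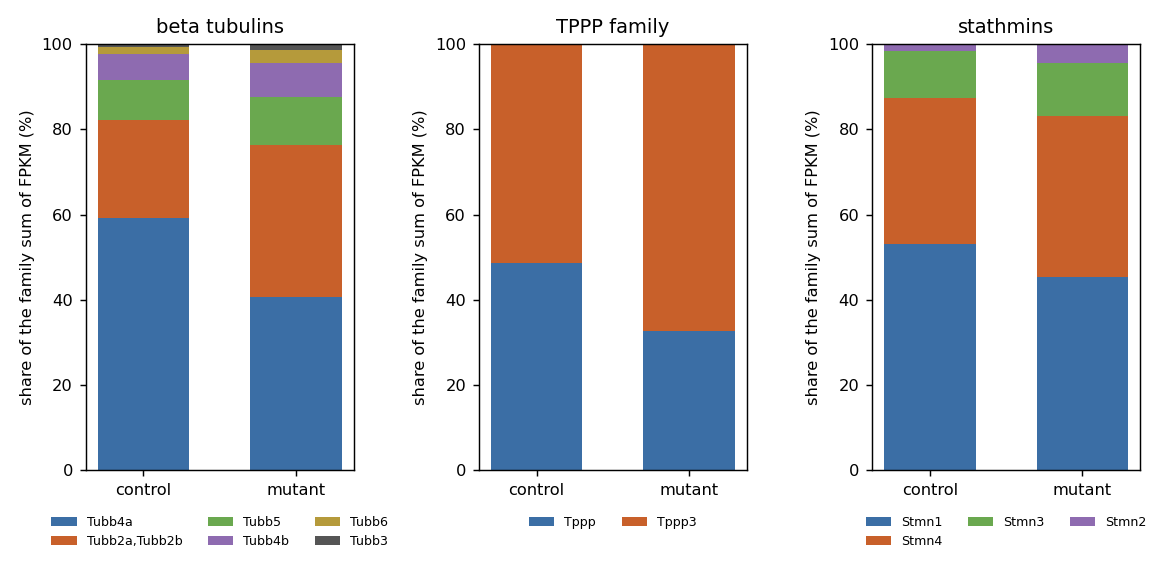
Share of each gene in the summed FPKM (percent, axis from 0) of the beta tubulins, the TPPP family and the stathmins, in the control and the mutant library. *Tubb4a* takes 59.1% and 40.6% of the beta tubulin sum, *Tppp* 48.5% and 32.6% of the TPPP sum, and *Stmn1* 53.0% and 45.3% of the stathmin sum.

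*Mapt*, which encodes the microtubule-binding protein tau and spans chromosome 11 from 104092750 to 104193403, had 37.6 FPKM in control nerves (36.0 to 39.2) and 31.5 FPKM in mutant nerves (30.5 to 32.9). The log2 ratio of −0.25 did not pass the cutoff. Rows without a gene name lay inside this span, 1 in the control and 9 in the mutant, of 107 to 251 bases. Their FPKM summed to 23.1 and 422, but each lay above its own Cufflinks bounds. *Map2*, the related protein of neuronal dendrites and of some immature OLs, was called higher, from 32.3 to 69.0 FPKM (log2 ratio 1.09). The *Mapt* to *Map2* ratio was 1.16 in the control and 0.457 in the mutant. *Map4*, the broadly expressed member of the same family, was at 114 and 98.1 FPKM.

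*Sirt2* encodes an NAD-dependent deacetylase that removes acetyl groups from alpha tubulin and is found in the myelin sheath. It was the most abundant member in both libraries, with 1348 FPKM (control) and 944 FPKM (mutant), a log2 ratio of −0.51 that missed the cutoff. Both values lay below their bounds, which were 1356 to 1385 in control nerves and 949 to 970 in mutant nerves. In the control file its row was merged with that of the neighbouring gene *Rinl* and ran on chromosome 7 from 29551771 to 29583984, and in the mutant file it ended at 29573693. *Rinl* on its own had 3.52 FPKM in the mutant, small beside *Sirt2*. Such a merge in 1 library only was found for 2.25% of all genes tested. Of the other 6 sirtuins, *Sirt1*, *Sirt5*, *Sirt6* and *Sirt7* stayed within 1.5-fold with overlapping bounds. The row of *Sirt7* was merged with that of *Mafg*, so its value is not that of *Sirt7* alone. *Sirt4* was called higher, at 7.94 and 12.6 FPKM, also with overlapping bounds. *Sirt3* was listed at 0 in the control and at 13.3 FPKM in the mutant.

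*Ermn* had the largest difference of all members. It encodes ermin, an actin-binding protein that appears in OLs late in differentiation. Its FPKM was 81.7 in the control (77.3 to 86.6) and 31.7 in the mutant (29.1 to 31.7), a log2 ratio of −1.36 and a 2.57-fold difference. The mutant FPKM lay just above its upper bound. Of all genes tested, 2.37% had a lower log2 ratio. The row itself differed between the files, assembled from reads in the control and carrying only the annotated gene in the mutant. In the control it spanned 67837 bases of chromosome 2, from 57837508 to 57905344, and in the mutant 7638 bases, from 57897526 to 57905163. The stretch of 21136 bases at the far end of the control row formed a row without a name in the mutant, with 5.87 FPKM. When all unnamed rows inside the span were added to each gene, the log2 ratio of *Ermn* was −1.17. With only those of at least 300 bases, a limit set after seeing the data, it was −1.07. That limit left out the unnamed control row, of 282 bases, and kept those of the mutant. Each value was still past the cutoff. Rows whose spans differed by more than 1.5 times between the libraries occurred for 3.01% of the genes tested, and their part in the value of *Ermn* was not tested further.

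*Gsn* encodes gelsolin, which severs and caps actin filaments. On chromosome 2 from 35111879 to 35163422, it had 555 FPKM (control) and 458 FPKM (mutant), a log2 ratio of −0.28 within the cutoff. The control FPKM lay just below its bounds of 556 to 571. Within its family, *Gsn* accounted for 92.3% (control) and 90.2% (mutant) of FPKM. *Flii* (24.1 and 24.0 FPKM) and *Svil* (9.86 FPKM in each) hardly differed, *Capg* was at 11.6 and 13.9 FPKM with overlapping bounds, and *Avil* was called higher at a low level, from 0.537 to 1.90 FPKM. *Scin* was near 0.15 FPKM and *Vil1* was listed at 0 in both libraries.

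*Anln* was the least abundant member. It encodes anillin, a scaffold that binds actin and septins in the contractile ring of dividing cells and in the septin filaments of mature myelin. The row on chromosome 9 from 22135658 to 22193650 had 5.54 FPKM in control nerves (5.11 to 5.98) and 3.59 FPKM in mutant nerves (3.25 to 3.88). As for *Ermn*, the row was assembled from reads in the control file and carried only the annotated gene in the mutant file, though the span of *Anln* was the same in both. The log2 ratio of −0.61 lay just past the cutoff, the bounds of both libraries allow −0.86 to −0.39, and with a pseudocount of 1 FPKM it was −0.51 and no longer past it. Genes of cytokinesis and mitosis were measured beside it. Of 11 such genes tested, 0 were called lower and 1 higher (*Cit*, from 1.72 to 3.36 FPKM), and their median log2 ratio was −0.024. *Top2a*, the most abundant of them, was at 13.6 and 12.5 FPKM, and *Kif20a* was listed at 0 in both libraries. Of 11 septins, the filament proteins that anillin binds, *Sept4* was called lower (220 to 138 FPKM, log2 ratio −0.67), *Sept6* was called higher (6.90 to 13.6 FPKM), and the median log2 ratio was 0.042. *Sept2* and *Sept7* were lower within the cutoff, with log2 ratios of −0.29 and −0.42, and *Sept8* was at 80.8 and 83.2 FPKM.

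The rest of the cytoskeleton was read from 7 lists of 108 genes, of which 102 were tested. Of these, 7 were called lower and 10 higher, *Sirt3* with its control value of 0 among the latter, and the median log2 ratio was −0.047. The alpha and beta tubulins other than *Tubb4a* had 0 of 10 genes lower and 2 higher (*Tuba4a* and *Tubb3*), with a median log2 ratio of 0.20. The merged row of *Tuba1a* and *Tuba1b*, the most abundant of them, had 1947 FPKM (control) and 1545 FPKM (mutant). *Tuba4a* was at 4.50 and 7.44 FPKM. Among 28 microtubule regulators, 0 were lower and 2 higher (*Stmn2* and *Map2*), with a median of −0.16. *Kif5a*, a kinesin of axonal transport and the most abundant of these, was at 283 and 369 FPKM.

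Among 28 genes of actin and its regulators, 5 were called lower and 2 higher, with a median log2 ratio of −0.089. *Marcks*, which ties actin to the membrane, had the lowest ratio of them, from 205 to 104 FPKM (log2 ratio −0.98). *Cfl2*, a cofilin that severs actin, was at 39.1 and 24.2 FPKM (log2 ratio −0.69). *Arpc1b*, a subunit of the Arp2/3 complex that branches actin, was at 252 and 156 FPKM (log2 ratio −0.69). *Fyn*, the kinase that couples axonal signals to tau and actin in OLs, was at 204 and 132 FPKM (log2 ratio −0.63), and *Pfn2*, a profilin, at 172 and 112 FPKM (log2 ratio −0.63). In the other direction, *Tmsb10*, which sequesters actin monomers, was at 380 and 818 FPKM (log2 ratio 1.11), besides *Avil*. *Tmsb4x*, its paralogue and the most abundant gene of the list, was at 1431 and 968 FPKM (log2 ratio −0.56), within the cutoff. The actin *Actb* was at 880 and 667 FPKM (log2 ratio −0.40). Its FPKM lay below its bounds in the control (882 to 905) and above them in the mutant (590 to 604). The bounds of *Actb* thus give a larger difference. *Actg1* was at 724 and 673 FPKM, but its bounds lay the other way round, at 640 to 659 in the control and 674 to 692 in the mutant. Of 8 proteins that link actin to the membrane (ezrin, radixin, moesin and relatives), 1 was called lower and 0 higher, with a median of 0.0053. That was *Epb41l3*, a protein 4.1 of the paranode, listed under its older symbol Epb4.1l3, at 69.2 and 26.9 FPKM (log2 ratio −1.36). *Epb41l2*, the most abundant of them, was at 201 and 148 FPKM. The 6 sirtuins other than *Sirt2* had 0 genes lower, with a median of −0.12. The 2 counted as higher were *Sirt3*, whose ratio is set by the pseudocount because it was listed at 0 in the control, and *Sirt4*, whose bounds overlapped. Without *Sirt3* the median is the value of *Sirt6*, −0.14.

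**Figure D4:**
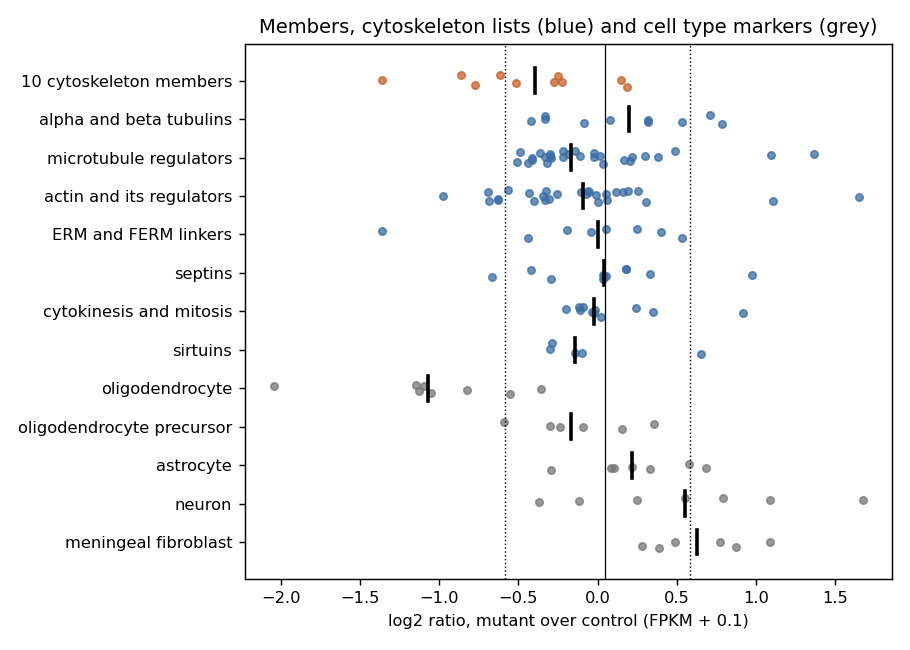
Log2 ratio of mutant over control for each tested gene, for the 10 members (orange), 7 cytoskeleton lists (blue) and 5 of the marker lists (grey), with the median of each (bar), the median of all genes tested (line) and the 1.5-fold cutoff (dotted). *Sirt3*, listed at 0 in the control, is left out of its list and its median bar. The median of the members, −0.40, lies between that of the OL markers, −1.07, and those of the cytoskeleton lists, −0.16 to 0.20.

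Marker lists for the cell types of the nerve were compared between the libraries in the same way. All 8 markers of mature OLs had a lower FPKM in the mutant, 6 of them past the cutoff, and their summed FPKM was 12621 in the control and 5298 in the mutant. Their median log2 ratio was −1.07, and among the members only *Ermn* was below it. *Mog*, a late myelin gene, was at 597 and 407 FPKM, and the *Ermn* to *Mog* ratio was 0.137 in the control and 0.0780 in the mutant. Of 6 OL precursor markers, 4 had a lower FPKM in the mutant, 1 of them past the cutoff (*Gpr17*, 235 to 156 FPKM). The other 2, *Ptprz1* and *Cacng4*, had a higher one within the cutoff. The sum was 403 and 334 FPKM, and *Gpr17* alone fell by more than the sum did. Meningeal fibroblast markers were higher in 6 of 6, with 3 past the cutoff and sums of 7456 and 15111 FPKM, of which *Ptgds*, also made by OLs, gave most. Of 7 tested neuronal markers, 3 were higher past the cutoff and 0 lower, with sums of 82.0 and 89.2 FPKM over all 9. Within the cutoff, 2 of the 7 had a lower FPKM (*Nefm*, and *Gap43* at 49.9 and 46.0 FPKM). Under the filter, *Pou4f1* was lower and *Slc17a6* higher. Past the cutoff were 1 of 7 astrocyte markers (higher, sums of 5100 and 6027 FPKM), 1 of 5 endothelial markers (higher, 114 and 104 FPKM) and 0 of 7 microglial markers (172 and 215 FPKM). All 6 red blood cell genes tested were higher, with sums of 295 and 735 FPKM, where a row shared by several globin genes was counted once for each. *Hba-a1* and *Hba-a2* had the same values, as did *Hbb-b1* and *Hbb-bs*, so the 6 genes are not 6 separate measurements. No marker found in both files was at 0 in either library. The part of these differences in the values of *Gsn*, *Mapt*, *Stmn4*, *Tppp3*, *Tubb3*, *Stmn2* and *Map2* was not tested.

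*Stmn4* and *Tppp3* stayed higher in the mutant under every alternative tried except a common sum over all rows. When all rows of each library, unnamed rows included, were brought to a common sum of 1000000, the median log2 ratio of all genes tested moved by −0.68, and all 10 members were lower in the mutant, *Tppp3* at −0.48 and *Stmn4* at −0.52. Rows with no gene name held 70.7% (control) and 80.7% (mutant) of total FPKM. The order of the members was the same, which this scaling all but fixes, as it multiplies every value of a library by the same constant. With named rows alone brought to that sum, *Tppp3* and *Stmn4* stayed higher, and *Sirt2*, at −0.58, came to lie at the cutoff and was called lower.

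**Figure D5:**
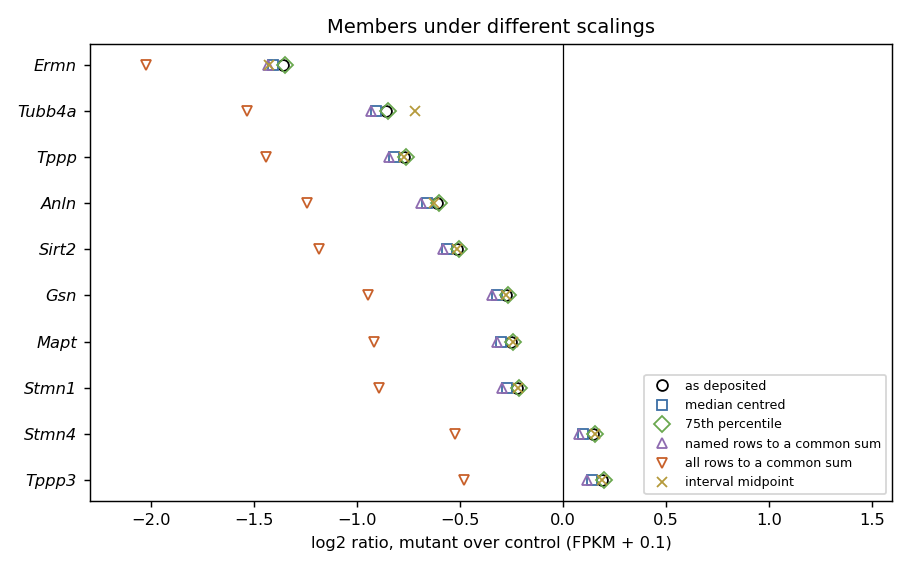
Log2 ratio of each member under 6 ways of scaling or reading the FPKM (symbols), with a line at 0. The interval midpoint was added after seeing the data. The common sum over all rows (downward triangles) moves every member to the left, to −0.48 for *Tppp3* and −2.03 for *Ermn*, and for *Tubb4a* the interval midpoint stands apart at −0.72.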

How the data were processed

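RNA was isolated from control and mutant optic nerves, and libraries were sequenced on a HiSeq 2000. The deposited FPKM are Cufflinks output on TopHat alignments, the latter run without changed options (versions not given in the sources used here), and the submitters' processing notes name build mm9. The tables hold 1 row per gene or assembled locus, with FPKM, bounds and a status. Rows named for several genes were split, each symbol taking the row's value, and rows of a symbol were summed. Genes with status OK in both libraries and at least 1 FPKM in at least 1 were tested, and log2 ratios used a pseudocount of 0.1 FPKM, which understates low genes. The 1.5-fold cutoff follows the study. Locus starts were counted from 1.

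Depth was the smallest value at which the bounds of unnamed rows under 100 bases gave whole fragments (within 0.01 for 99.5% of 388 bounds in the control and 99.7% of 698 in the mutant). Among named rows above 0, the FPKM lay outside its own bounds in 7.26% and 8.64%.

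The members, the 7 cytoskeleton lists and the 8 marker lists were chosen with earlier results of these data known. Named from the lists were genes past the cutoff with bounds apart, the most abundant gene of each and close paralogues of members. *Sept2*, *Sept7*, *Sept8*, *Kif20a*, *Actb*, *Actg1*, *Flii*, *Svil*, *Vil1*, *Map4*, *Mog*, *Gpr17* and *Ptgds* were named after their values were seen. The counting was tested on simulated data. Computation used pandas 2.3.3, numpy 2.4.6 and matplotlib 3.10.9 under Python 3.11.15. With 1 library per genotype, no test was possible. Of the alternatives, 13 were planned and 3 were added after seeing the data.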

Additional observations from a re-analysis of the deposited data

Results flagged for a closer look

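Rows without a gene name that lie inside the span of a member are not part of the comparisons above, and they were singled out where their summed FPKM was higher in the mutant than in the control. Inside *Mapt*, 9 such rows of 107 to 203 bases summed to 422 FPKM in the mutant, and 1 row of 251 bases had 23.1 FPKM in the control. The highest, of 107 bases, had 143 FPKM with Cufflinks bounds of 1.87 to 6.79, and the FPKM of all 10 rows lay above their bounds. Inside *Gsn*, 1 row of 217 bases had 38.4 FPKM in the mutant (bounds 5.19 to 9.58), and the control had none. Inside the span of *Ermn*, 2 rows summed to 7.14 FPKM in the mutant and 1 row had 6.02 FPKM in the control. The longer of the mutant rows, of 21136 bases, covers ground that belongs to the *Ermn* row of the control file. What gave rise to these rows was not tested.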

How the results depend on the processing

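Of the 4 calls among the members, those of *Ermn*, *Tubb4a* and *Tppp* held under each alternative scaling, filter and pseudocount tried and with bounds required to be apart, and *Anln* lost its call with a pseudocount of 1 FPKM. Above a fold change of 2, 1 member, 522 of all tested genes and 1 of the listed cytoskeleton genes were lower, and 975 and 5 were higher. A common sum of 1000000 over all rows gave 8 members lower, a member median of −1.07, 7182 genes lower and 485 higher, and for the lists 70 lower, 2 higher and a median of −0.72. This scaling moved the split of calls over all genes from mostly higher to mostly lower. Adding every unnamed row inside a span gave 1 member higher (*Mapt*, log2 ratio 2.90), 1894 genes lower and 3541 higher, and 15 and 16 listed genes. Adding only those of at least 300 bases, chosen after seeing the data, gave 12 listed genes lower and left *Mapt* at −0.25. Requiring 5 FPKM left 1290 genes higher. Leaving out genes with a merged row, also chosen after seeing the data, removed *Sirt2* and gave a member median of −0.28. The cause was not tested beyond what each alternative changes. No paired analysis was possible because there was 1 library per genotype, and for the same reason no library could be left out. The bounds of the members were within 1.05% to 8.82% of their midpoints, but for 4 members the FPKM lay outside them in at least 1 library, and they do not cover variation between animals.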
